A study of Mus musculus with 6 samples.

Results

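Intestinal epithelial genes were followed in pancreatic tumours of mice with and without Msi1, which encodes the RNA-binding protein Musashi 1. The 7 genes Cdx2, Vil1, Lgals4, Cdh17, Gpa33, Fabp2 and Guca2a, out of 18193 named genes on the array, were chosen by name and with their values in these arrays known. Each was represented by its brightest probe set, a group of short probes for 1 transcript, among the 9 that the platform annotation gives to these genes alone. Tumour tissue came from C57BL/6 mice of 11 weeks whose tumour alleles included p53f/f and ptf1a-Cre, in which Cre is driven from a gene of the pancreatic lineage. All 6 samples carried the same tumour alleles. In 3 samples Msi1 was intact (genotype wt) and in 3 it was deleted (Msi1 -/-, here KO). One array was hybridised per sample. The labels do not say outright that each sample was a separate animal, so errors and p-values describe the spread between these samples, and their number limits the precision.

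The intestinal epithelium is a single layer of cells renewed from crypts. CDX2 is the homeobox transcription factor that sets its identity, and absorptive enterocytes carry a brush border of microvilli bundled by villin, with digestive enzymes in its membrane and fatty acid-binding proteins below it. Goblet, Paneth and enteroendocrine cells secrete mucus, antimicrobial proteins and hormones. The normal adult pancreas makes little of many of these products, though not of all. Metaplastic ducts and precursor lesions are known to turn on gastric and, less often, intestinal genes.

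The arrays held tissue of several kinds. Epithelial keratins were bright in all 6 arrays, with Krt8 between 9938 and 13388 and Epcam between 6614 and 8966 in deposited intensity units. Fibroblast and leucocyte transcripts were bright as well, with Col1a2 between 11888 and 16741 and Ptprc, the CD45 gene, between 1406 and 3035. In such bulk tissue, fewer cells of a type and less RNA per cell cannot be told apart. The brightest Msi1 probe set was dim, at 143.6, 150.4 and 257.0 in wt replicates 1, 2 and 3 and at 140.8, 168.5 and 127.4 in KO replicates 1, 2 and 3. These values do not check the genotype labels, since the position of the probes relative to the deletion is unknown. Xist read 6226 in wt replicate 3 and between 131.3 and 387.1 in the other arrays. Eif2s3y, a gene of the Y chromosome, read 88.2 in wt replicate 3 and between 716.2 and 943.6 in the others. By these sex-linked genes wt replicate 3 alone read as female, so sex was not balanced between the genotypes. Array background lay between 162.9 and 191.4, as read from 81 probe sets of olfactory, vomeronasal and taste receptors (their 95th percentile).

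As intestinal genes, the 7 were only partly present. Lgals4, Vil1, Cdh17 and Gpa33 were above background in all 6 arrays. Fabp2 was above it in 2, and Cdx2 and Guca2a in 1 each. Cdx1, the other intestinal Cdx factor, lay between 84.3 and 98.2, below background in all 6. Hnf4a, a nuclear receptor of gut and pancreatic epithelium, lay between 527 and 1388.

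Upstream sequences of 4 members are shown because they stand for the array patterns described after them. Cdx2 was above background in KO replicate 3 alone, Fabp2 in wt replicate 2 and KO replicate 3, and Lgals4 and Vil1 had their highest values in KO replicates 2 and 3. The 250 bases before the annotated start come from RefSeq (GRCm38.p6), which matched 6 of the 7 members, all but Cdh17. Both strands were searched for letters known from the sites of gut transcription factors. For CDX factors these were TTTATG and also TTTATT. For GATA factors the letters were AGATAA. For the receptor HNF4 the letters were CAAAGT, and for HNF1 they were GTTAAT. Capitals mark matches, and no matches overlapped in these windows.
Cdx2 (chr5:147307250-147307499, - strand): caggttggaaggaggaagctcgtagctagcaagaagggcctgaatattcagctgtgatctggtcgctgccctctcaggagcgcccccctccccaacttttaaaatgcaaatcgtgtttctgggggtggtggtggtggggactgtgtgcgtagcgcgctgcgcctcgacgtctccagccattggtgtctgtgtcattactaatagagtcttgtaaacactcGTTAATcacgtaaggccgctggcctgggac
Fabp2 (chr3:122894822-122895071, + strand): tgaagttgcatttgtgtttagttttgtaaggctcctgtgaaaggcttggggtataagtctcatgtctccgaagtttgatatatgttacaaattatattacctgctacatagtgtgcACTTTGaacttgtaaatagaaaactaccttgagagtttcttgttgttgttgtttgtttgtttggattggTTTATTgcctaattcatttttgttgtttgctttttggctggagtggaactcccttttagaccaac
Lgals4 (chr7:28833544-28833793, + strand): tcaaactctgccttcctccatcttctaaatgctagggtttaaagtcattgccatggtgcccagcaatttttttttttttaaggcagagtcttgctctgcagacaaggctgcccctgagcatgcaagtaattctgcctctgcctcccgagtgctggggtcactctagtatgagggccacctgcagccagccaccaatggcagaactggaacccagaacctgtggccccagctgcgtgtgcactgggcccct
Vil1 (chr1:74409134-74409383, + strand): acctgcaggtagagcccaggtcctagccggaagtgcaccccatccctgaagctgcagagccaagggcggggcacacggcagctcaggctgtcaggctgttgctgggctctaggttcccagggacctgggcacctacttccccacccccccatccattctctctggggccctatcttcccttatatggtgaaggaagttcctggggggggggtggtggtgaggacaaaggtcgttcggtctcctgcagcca

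The Fabp2 window held a CDX-type match 65 to 60 bases before the start and an HNF4-type match 134 to 129 bases before it. In the Cdx2 window the match was of HNF1 type, 30 to 25 bases before the start. The Lgals4 and Vil1 windows held none of these letters. Among the members not printed, Gpa33 had a CDX-type match 27 to 22 bases before the start and Guca2a a pair of GATA-type matches. Over all 32851 windows of this length, 25.5% held a CDX-type match, 12.6% an HNF4-type, 9.99% a GATA-type and 6.43% an HNF1-type match. Of 87 windows of other listed intestinal genes, 26.4%, 21.8%, 19.5% and 14.9% did, in the same order. A match describes letters only.

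Cdx2, the intestinal master regulator, was below background in 5 arrays and above it in 1. Its brightest probe set, 1422075_at, read 123.5, 150.8 and 149.2 in wt replicates 1, 2 and 3 and 124.2, 125.1 and 232.7 in KO replicates 1, 2 and 3. KO replicate 3 was 1.54 times the next array, and the genotypes overlapped. The log2 difference, KO minus wt on the log2(intensity + 1) scale used throughout, was 0.13 ± 0.23 (SE), and -0.17 without KO replicate 3. The other Cdx2 probe set, 1422074_at, stayed below background, from 110.4 to 135.5, and was likewise highest in KO replicate 3.

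Vil1 encodes villin, the actin-bundling protein of the brush border, which other gut-derived epithelia can also express. Its probe set, 1448837_at, read 794, 1052 and 1018 in wt replicates 1, 2 and 3 and 753, 1495 and 1363 in KO replicates 1, 2 and 3. Both the highest and the lowest values were in KO arrays. The log2 difference was 0.28 ± 0.26 (SE), 0.59 without KO replicate 1 and 0.10 without KO replicate 2.

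Lgals4, galectin-4, is a lectin of the gut epithelial surface that organises apical membrane traffic. Its probe set, 1451336_at, was the brightest of the 7, and its KO values were 4.48-fold apart. The wt values were close together, 3614, 2771 and 2947, while KO replicates 1, 2 and 3 read 1704, 5502 and 7629. Group means were 3111 ± 445 in wt and 4945 ± 3002 in KO arrays (SD, n = 3). The log2 difference of 0.43 ± 0.50 (SE) became 1.07 without KO replicate 1 and -0.01 without KO replicate 3.

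Cdh17, the liver-intestine cadherin, joins enterocytes to one another. Its probe set, 1419331_at, read 625, 819 and 994 in wt replicates 1, 2 and 3 and 719.8, 344 and 1755 in KO replicates 1, 2 and 3. The KO arrays thus held both extremes, 5.09-fold apart, around a wt group with a mean of 813 ± 185 (SD, n = 3). The log2 difference was -0.08 ± 0.53 (SE), with 0.49 without KO replicate 2 and -0.68 without KO replicate 3.

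Gpa33, the A33 antigen, is an immunoglobulin-like surface protein of intestinal epithelium. Its brightest probe set, 1419330_a_at, had a range of 1.34-fold, at 375, 360.5 and 389.9 in wt and 297, 326 and 398 in KO replicates 1, 2 and 3. The log2 difference was -0.15 ± 0.12 (SE), -0.06 without KO replicate 1 and -0.27 without KO replicate 3. Its other probe set, 1454247_a_at, read between 172 and 189 and differed by -0.02 ± 0.07 (SE).

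Fabp2, the intestinal fatty acid-binding protein of enterocytes, was measured above background in only 2 arrays. Its probe set, 1418438_at, read 88.6, 559 and 152 in wt replicates 1, 2 and 3 and 93.7, 111 and 432 in KO replicates 1, 2 and 3. These were 1 array of each genotype, and in the other 4 its level has only a bound. The log2 difference was -0.24 ± 0.77 (SE), 0.51 without wt replicate 2, -0.93 without KO replicate 3 and -0.18 without both.

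Guca2a encodes guanylin, a peptide that activates the gut receptor guanylate cyclase C. Its probe set, 1416905_at, was dim, at 136, 142 and 179.9 in wt and 134, 130.5 and 128 in KO replicates 1, 2 and 3. Wt replicate 3 alone exceeded background, by little, and it was also the array with high Xist. The genotypes did not overlap, and the log2 difference was -0.21 ± 0.10 (SE), or -0.09 without wt replicate 3. This was the single member of 7 without overlap. Over the array, 3.71% of probe sets were lower in KO without overlap, 4.08% were higher in KO without overlap, and 7.79% did not overlap in either direction.

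**Figure D1:**
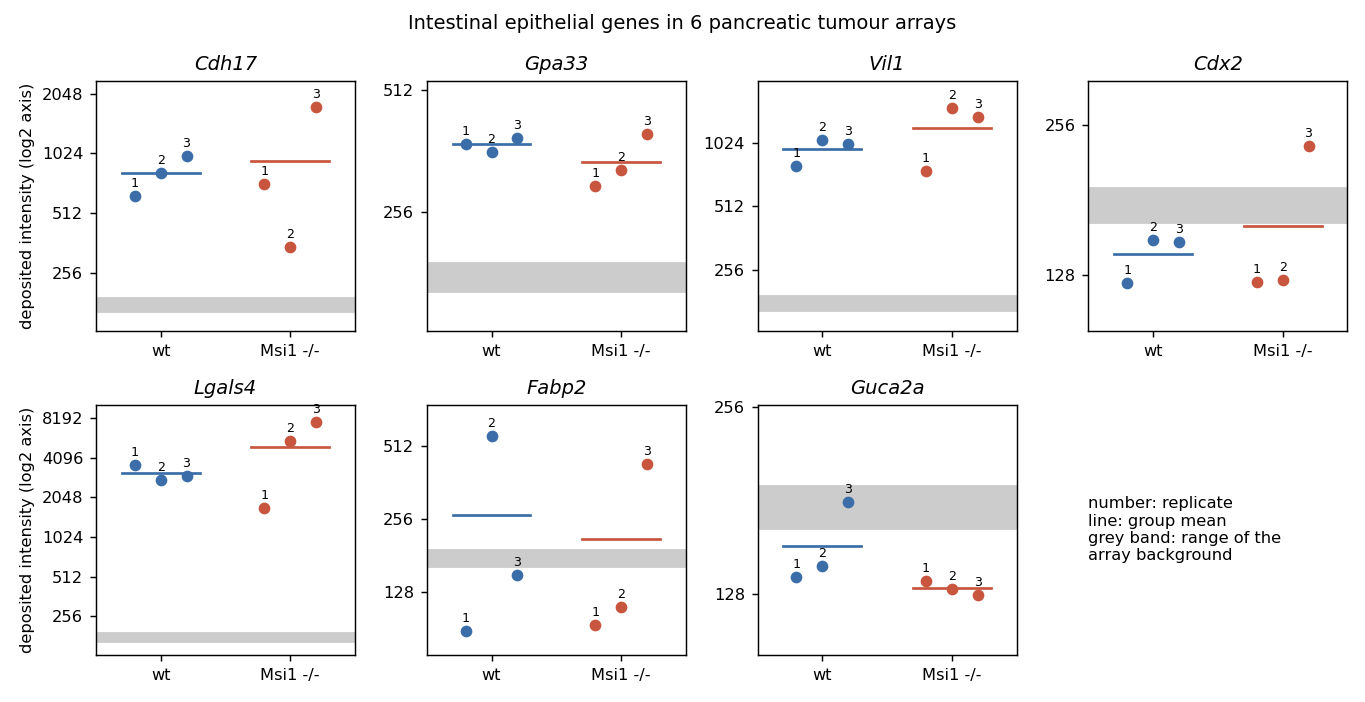
Deposited intensity (log2 axis) of the brightest probe set of each of the 7 genes in 3 wt (blue) and 3 Msi1 -/- arrays (red), with the replicate number over each point, group means as lines and the range of array background as a grey band. Cdx2 stands above the band only in KO replicate 3, and Fabp2 in wt replicate 2 and KO replicate 3.

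Between the genotypes, none of the 7 was called, and the members' mean difference was close to 0. With limma and Benjamini-Hochberg adjustment, 0 of 45037 probe sets (0%) had an adjusted p under 0.05, and 1355 (3.01%) had an unadjusted p under 0.05. KO means on the log2 scale were higher for 3 members and lower for 4, and the median difference was -0.08, against 0.001 over all 18193 genes. Because the members were chosen with this contrast known, these counts are a description. The mean of the 7 genes, each centred on its 6-array mean, was -0.01 ± 0.24 in wt and 0.01 ± 0.58 in KO arrays (SD, n = 3). The KO arrays spread from -0.45 in replicate 1 to 0.66 in replicate 3, and the wt arrays, from -0.28 to 0.20, lay between them. Without KO replicate 3 the difference of 0.02 became -0.30, and without KO replicate 1 it became 0.25.

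**Figure D2:**
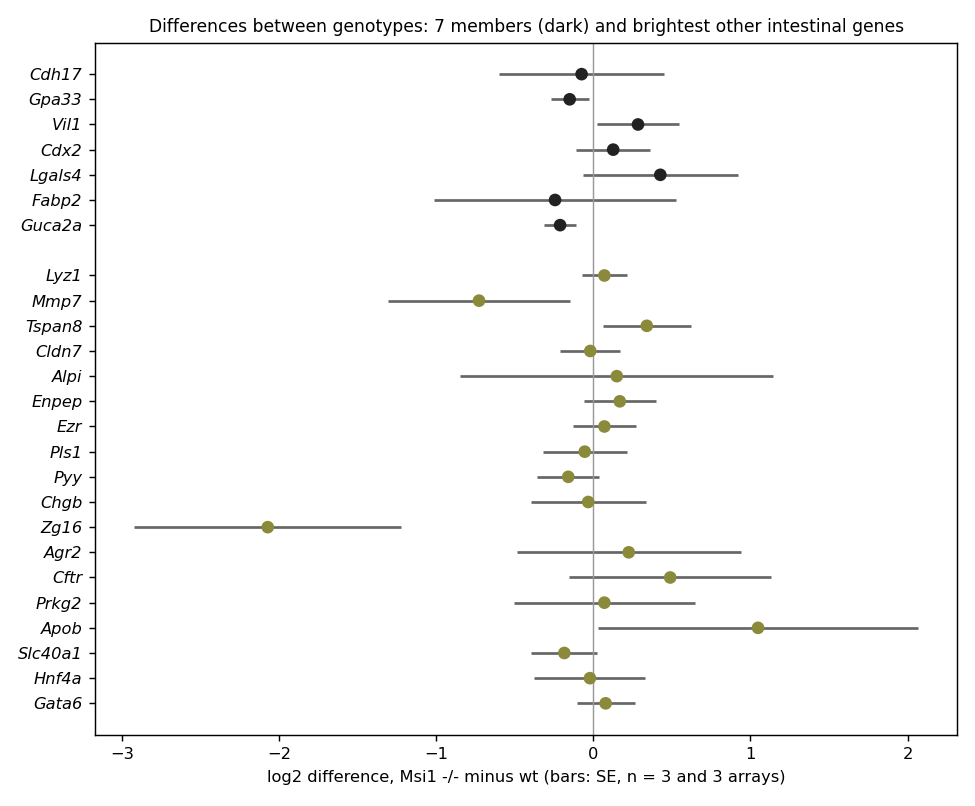
Log2 difference, Msi1 -/- minus wt, with bars of 1 SE (3 and 3 arrays), for the 7 genes (dark) and the brightest other listed intestinal genes of each role (olive). Apob, 1.05 ± 1.02, and Alpi, 0.15 ± 1.00, have the widest bars, and among the 7 genes Fabp2 has, at -0.24 ± 0.77.

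The 7 genes did not vary as one block over the arrays. KO replicate 3 was the highest array for Cdh17, Gpa33, Cdx2 and Lgals4, 4 of 7, though for Gpa33 by only 1.02 times the next array. It was so for 13.7% of all genes, 36.5% of 96 other listed intestinal genes and 41.7% of 12 epithelial markers. Of 21 gene pairs, 8 had a Pearson r above 0.5 over the 6 arrays and 4 had one below 0, with a median of 0.43. That median was 0.27 without KO replicate 1 and 0.30 without KO replicate 3. The highest were 0.86 for Cdh17 with Cdx2, 0.82 for Vil1 with Lgals4 and 0.75 for Cdx2 with Fabp2. Guca2a had r between -0.36 and 0.35 with the others. These values rest on 6 arrays that share tissue makeup and normalization, and they formed part of how the genes were chosen. Without KO replicate 3 the r of Cdh17 with Lgals4 went from 0.18 to -0.70, that of Cdh17 with Cdx2 from 0.86 to 0.67, and that of Vil1 with Lgals4 from 0.82 to 0.77. The pair of Lgals4 and Vil1 was little affected by that array.

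Among the other intestinal genes of a list by role, 96 of 102 were measured and 70 were above background in at least 1 array. KO means were higher for 51 and lower for 45, 0 were called in either direction, and the median log2 difference was 0.005. One, Pla2g2a, a secreted phospholipase of Paneth cells, did not overlap between the genotypes, but it was below background in all arrays and differed by -0.02 (it was picked out after its values were seen). Medians by role ran from -0.03 for 9 enteroendocrine genes to 0.28 for 10 adhesion and surface genes. The list's highest difference in the list was that of Apob, 1.05 ± 1.02, and its lowest that of Zg16, -2.07 ± 0.85 (SE). Zg16 is a lectin of goblet cells that is also a pancreatic zymogen granule protein. It read 1107, 2919 and 1584 in wt and 116, 379 and 1546 in KO replicates 1, 2 and 3. The 18 measured acinar markers had a median log2 difference of -1.15, and their summed intensity was 47972 to 77945 in wt and 16429 to 48048 in KO arrays, lowest in KO replicates 1 and 2, as Zg16 was. The part of acinar tissue in the Zg16 difference was not tested.

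Some genes of absorptive enterocytes were high in the same pair of arrays as Fabp2, and others were not. Wt replicate 2 and KO replicate 3 were the highest arrays for 4 of 11 brush border enzymes and 12 of 26 transport genes. Among those above background in at least 1 array, they were highest for 4 of 8 enzymes and 6 of 13 transport genes. The peptidases Anpep and Enpep were highest in wt replicate 2 and KO replicate 1, and Dpp4, another, in KO replicate 1 and wt replicate 1. In KO replicate 3 Anpep read 231.8, close to its lowest value, 231.2 in KO replicate 2, and its highest was 325 in wt replicate 2. Apoa1 and Apoa4 encode apolipoproteins of chylomicrons, the lipid particles that enterocytes release. Apoa1 read 189, 1573 and 229 in wt and 202, 189 and 1036 in KO replicates 1, 2 and 3. For Apoa4 the values were 204, 1252 and 259.6 in wt and 229.8, 202 and 1022 in KO arrays. Fabp1, the fatty acid-binding protein of liver and proximal gut, was at 340.4 in wt replicate 2 and 335 in KO replicate 3, with the other 4 arrays from 79.0 to 96.8, below background. Alpi, intestinal alkaline phosphatase of the brush border, read 102, 563 and 193 in wt and 110.7, 111 and 1223 in KO replicates 1, 2 and 3. Slc5a1, the sodium-glucose cotransporter, read 494 and 483 in these arrays and from 237 to 275 in the rest.

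Over all 18193 genes, 7 were at least 2 times higher in both wt replicate 2 and KO replicate 3 than in any other array. They were Fabp2, Fabp1, Apoa1, Apoa4, Alpi, Defa39, a Paneth cell defensin, and Lypd8, a surface protein of gut enterocytes. Defa39 read 812 in wt replicate 2, 522 in KO replicate 3 and from 138 to 148 elsewhere. This pattern and these genes were picked out after their values were seen. With no fold asked, wt replicate 2 and KO replicate 3 were the highest pair for 31 of 96 other intestinal genes (32.3%), against 3.39% of all genes. Many of these genes were below background in most arrays, and some in all. Among genes above background in at least 1 array, the pair was highest for 22 of 70 (31.4%), against 3.27% of all such genes. Since the pair holds 1 array of each genotype, Fabp1, Apoa1 and Apoa4 differed between genotypes by only 0.03 ± 0.68, -0.26 ± 0.93 and -0.16 ± 0.82 on the log2 scale (SE).

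**Figure D3:**
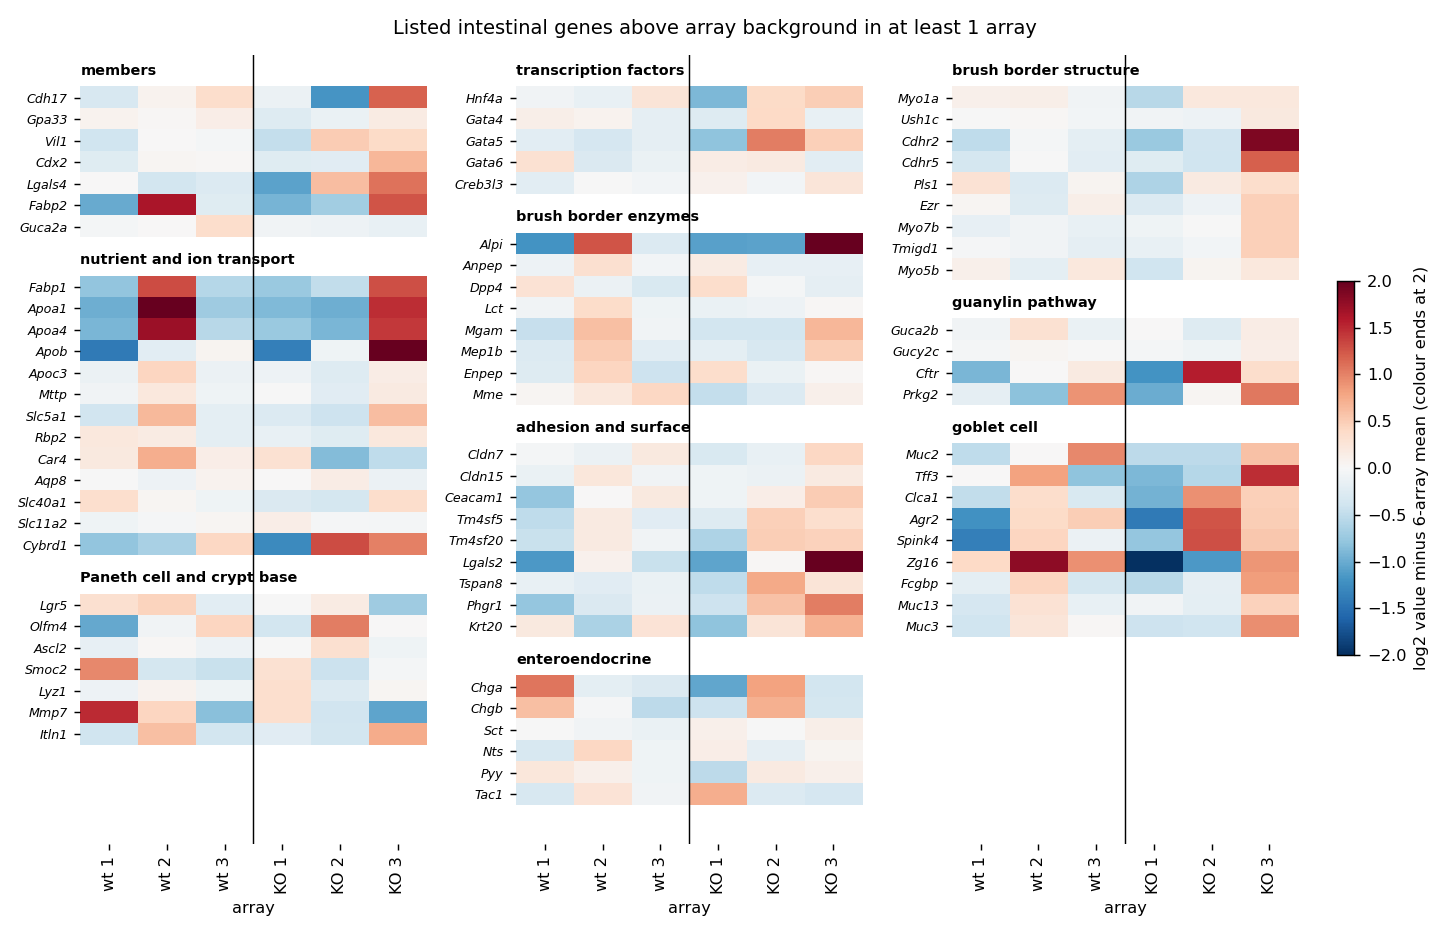
Log2 value minus the 6-array mean for the 7 members and the 70 other listed intestinal genes above background in at least 1 array, by role (rows) and array (columns), with a line between wt and KO (Msi1 -/-) arrays; colours end at 2 in either direction. Fabp1, Apoa1, Apoa4, Slc5a1 and Alpi are red in wt replicate 2 and KO replicate 3 alone, as Fabp2 is.

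Markers of other tissues were set beside this pair of arrays. Apoa1, Apob and Fabp1 are also made by the liver. Alb, albumin, was below background in all 6 arrays, from 104 to 150.5, and 2 of 7 measured hepatocyte markers were above it in any: Ttr, also an islet gene, in 6 arrays and Apoa2 in 1. The hepatocyte list summed to 1375 to 2281 in wt and 1104 to 2003 in KO arrays, and KO replicate 3 had the lowest sum. Goblet cell genes had their 2 highest scores, 0.52 and 0.74, in wt replicate 2 and KO replicate 3, as brush border enzymes and transport genes did. The pair was highest for 4 of 9 goblet cell genes. The remaining intestinal roles scored above 0 in only 1 of these arrays. Paneth cell and crypt base (0.15) and enteroendocrine (0.11) genes did so in wt replicate 2. Brush border structure (0.54), adhesion and surface (0.64), guanylin pathway (0.42) and transcription factor (0.115) genes did so in KO replicate 3. Acinar markers were highest in wt replicate 2, and KO replicate 3, with a score of 0.32, lay within the wt range of 0.29 to 0.92. Smooth muscle markers scored 0.79 in wt replicate 2 and -0.47 in KO replicate 3, with the highest score, 1.38, in KO replicate 1. Adipocyte markers scored 0.90 in wt replicate 2 and from -0.30 to -0.04 elsewhere. As a measure of RNA integrity, Gapdh signal from the 3' end was divided by that from the 5' end; the ratio was 1.86 in wt replicate 2, the highest, 1.61 in KO replicate 3 and from 1.38 to 1.67 in the others. The part of these differences in the enterocyte values was not tested. Whether RNA of intestinal tissue was present in these samples was not tested either.

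A further group of intestinal genes stood high in KO replicate 3 alone, as Cdx2 did. Apob, the structural apolipoprotein of chylomicrons, read 155, 361 and 434 in wt and 160.4, 393 and 3419 in KO replicates 1, 2 and 3. Its log2 difference of 1.05 fell to -0.20 without KO replicate 3. Lgals2, galectin-2, read 168, 399 and 274 in wt and 179.9, 382 and 2181 in KO arrays. Cdhr2 and Cdhr5 encode the protocadherins that link the tips of microvilli. In KO replicate 3 they read 705 and 475, against 115 to 189 and 157 to 204 in the other arrays. At 2 times the next array or more, KO replicate 3 was the highest for 17 of all genes, of which 5 were on the intestinal list, namely Alpi, Apob, Cdhr2, Cdhr5 and Lgals2. The other KO arrays and the wt arrays had 10, 33, 26, 6 and 4 such genes (KO replicates 1 and 2, wt replicates 1, 2 and 3), with 1 on the list in each of KO replicate 2 and wt replicate 1. Of 12 epithelial markers, 5 were highest in KO replicate 3, the keratins Krt7, Krt8, Krt18 and Krt19 and the cadherin Cdh1. The list's score was 0.20 there, 0.18 in wt replicate 1 and from -0.22 to 0.10 in the other arrays, and its sum was 71230 against 52571 to 63391. The part of epithelial content in these values was not tested.

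Lgals4 and Vil1 followed the arrays in another way. Both were highest in KO replicates 2 and 3 and lowest in KO replicate 1. So were Clca1, Gata5 and Cybrd1 of the intestinal list. Tm4sf20, a four-span membrane protein, read 128, 197 and 166 in wt and 113.5, 247 and 240.2 in KO replicates 1, 2 and 3. Phgr1, a small protein of gut epithelium, read 417, 588 and 659.6 in wt and 537, 1071 and 1460.2 in KO, with its lowest value in wt replicate 1. These genes were picked out after their values were seen. At least 2 times higher in both KO replicates 2 and 3 than in any other array was 1 of all 18193 genes, and 0 of the other intestinal genes. Gastric epithelial markers, with 13 of 14 measured and all 13 above background in at least 1 array, scored 0.54 and 0.32 in KO replicates 2 and 3, 0.29 in wt replicate 3 and -0.84 in KO replicate 1, and summed to 25789 to 41639 in wt and 19038 to 56208 in KO arrays. Pancreatic duct markers scored 0.44, 0.17 and -0.60 in KO replicates 2, 3 and 1, and summed to 9746 to 12079 in wt and 6632 to 17355 in KO arrays. KO replicate 1 had the lowest scores for gastric, duct, islet and acinar lists and the highest for smooth muscle, fibroblast, leucocyte and endothelial lists. The part of tissue makeup in the Lgals4 and Vil1 values was not tested.

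**Figure D4:**
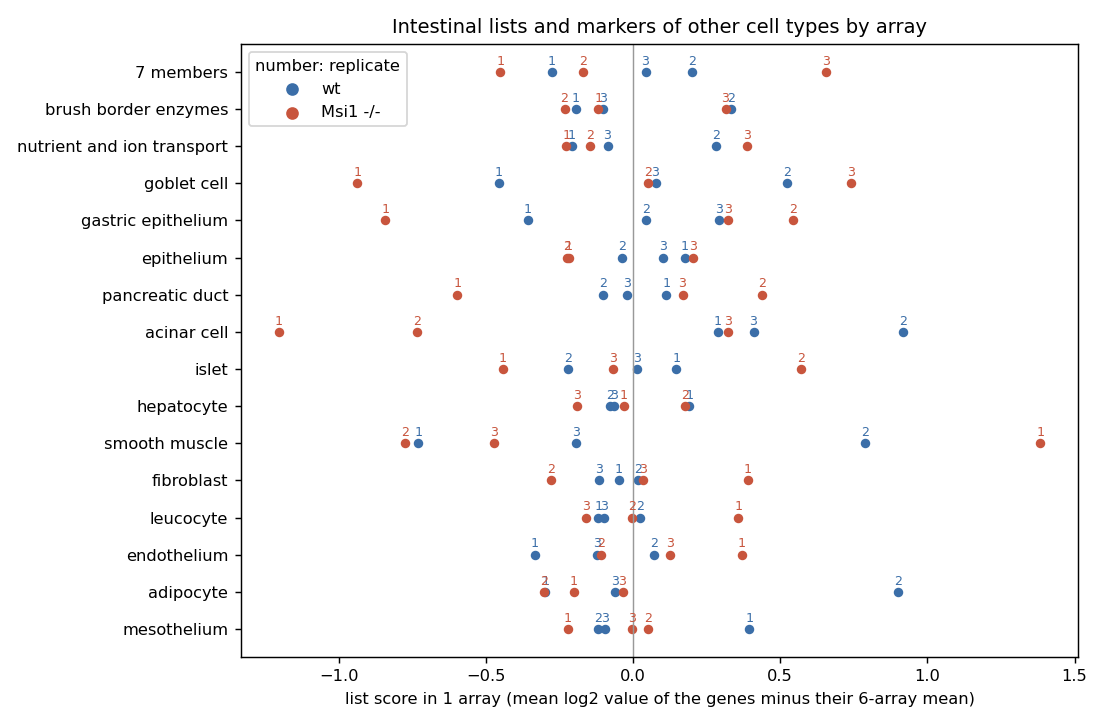
Score of each gene list in each array, the mean log2 value of its genes minus their 6-array mean, for 3 wt (blue) and 3 Msi1 -/- arrays (red) with replicate numbers. Brush border enzymes and nutrient transport genes are highest in wt replicate 2 and KO replicate 3, while gastric and duct lists are highest in KO replicate 2 and smooth muscle in KO replicate 1.

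In other roles, Cftr, Agr2, Tspan8 and Hnf4a were also highest in KO replicates 2 and 3 and lowest in KO replicate 1. The other genes below had a different pair of highest arrays. Cftr, the chloride channel opened downstream of guanylin, read 403, 761 and 856 in wt and 332, 2262 and 968 in KO replicates 1, 2 and 3, and is also a duct gene. Gucy2c, the guanylin receptor, lay between 187 and 219 in all arrays. Among transcription factors Gata6 differed by 0.08 ± 0.19 and Hnf4a by -0.02 ± 0.35 (SE). Agr2, a protein disulfide isomerase of mucous cells, differed by 0.23 ± 0.71 and was highest in KO replicate 2. Mmp7, a matrix protease of Paneth cells and of injured epithelium, read 11795 in wt replicate 1 and from 2031 to 5704 elsewhere. Lyz1, lysozyme of Paneth cells, was bright in all arrays, from 9889 to 15062. Its highest value was in KO replicate 1, where leucocyte markers also scored highest. Defa39, the Paneth cell defensin, was above background only in wt replicate 2 and KO replicate 3, at 812 and 522, so elsewhere its level has only a bound. The part of leucocytes in the Lyz1 values was not tested. Whether the probe sets of Lyz1 and Defa39 each read that gene alone was not tested either. Pls1, Ezr, Tspan8, Cldn7, Enpep, Prkg2, Slc40a1, Pyy and Chgb, the other brightest genes of their roles, differed by between -0.18 and 0.34. Pyy and Chgb were highest in wt replicate 1 and KO replicate 2, where islet markers also had their highest scores, 0.15 and 0.57. The part of islet cells in the Pyy and Chgb values was not tested.

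The 12 genes most like the mean of the 7 members, by Pearson r over the 6 arrays among the genes above background in at least 1 array and with an SD of at least 0.3, had r from 0.93 to 0.98. Of them, 4 were on the intestinal list, Muc3, a membrane mucin of the brush border, Alpi, Cdhr2 and Apob. The other 8 were Fer1l6, Trpm6, a magnesium channel of gut and kidney, B4galnt2, a glycosyltransferase, Ada, adenosine deaminase, Has3, a hyaluronan synthase, Ptprr, a receptor phosphatase, Lypd8 and Ivl, involucrin. How many of the 1655 genes compared were on the intestinal list was not counted. Muc3 and Fer1l6, with the highest r, were above background in 2 and 1 arrays, so their r rests in part on values below it. The member mean itself was highest in KO replicate 3, so a gene like it had to be high there. Muc3 read 107, 167 and 144 in wt and 105, 107 and 270.3 in KO replicates 1, 2 and 3. Ivl, a protein of stratified epithelium, read 233, 345 and 425 in wt and 153, 417 and 1757 in KO arrays.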

How the data were processed

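Per the labels' protocols, biotin-labelled RNA (6 ug per sample) of 3 wt and 3 Msi1 -/- pancreatic tumour samples was put on Affymetrix arrays. One allele shared by all samples is not reported here. The authors deposited 1 table of linear intensity values for 45101 probe sets, made with GCRMA (background correction by probe sequence, quantile normalization, probe summary) per the submitters' processing notes. Version and later rescaling are not given in the sources used here. Values ran from 51.2 to 20365, with array medians from 159.2 to 164.3.

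After removal of 64 controls, 45037 probe sets entered the tests. Of these, 34945 had 1 gene symbol, 932 several and 9160 none; symbols were updated through Entrez identifiers (34741 matched) with RefSeq GRCm38.p6. Values were analysed as log2(intensity + 1) in R 4.3.3 with the package limma 3.58.1 (moderated variance with an intensity trend, genotype as the only term) and Benjamini-Hochberg adjustment at 0.05. SE is limma's moderated standard error and SD is over arrays. On simulated data for this comparison (45037 probe sets, 200 changed, 5 runs) 92.8% of the changes of size log2 1 were found, and 98.6% of those of size log2 2. The noise was drawn independently for each probe set, without differences that arrays share, such as tissue makeup. The median SE of the real fit was 0.0815, below the SE of every member's brightest probe set. These shares therefore do not measure what could be found among the members.

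The members and gene lists were chosen with earlier results of these data known. Lists covered 9 intestinal roles and 12 other tissues. Named from the list were the up to 2 brightest genes per role above background in at least 1 array, and the 12 genes most like the member mean; other genes were named after their values were seen. Alternatives were a pseudocount of 16, quantile normalization, median centring, cyclic loess, probe sets averaged per gene, a filter at background, array weights, no trend, the replicate number as a block and each array left out. Same-numbered arrays did not deviate together in every pair (correlations 0.17, -0.09 and 0.28), so the numbers were not taken as pairs.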

Additional observations from a re-analysis of the deposited data

How the results depend on the processing

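The count of 0 called probe sets held in every setting except without KO replicate 1, where 1 was called (Ighm, no member), so the range on leaving out 1 array was 0 to 1; the count at an unadjusted p under 0.05 was 886 to 2723 in those fits and 2120 with the replicate block. The member mean difference of 0.02 lay between -0.30 and 0.25 on leaving out 1 array, was 0.12 for the 4 members above background in all arrays and -0.19 without both wt replicate 2 and KO replicate 3 (both alternatives chosen after seeing the data), and changed sign without wt replicate 1 or KO replicate 3. The median difference of the other intestinal genes, 0.005, lay between -0.06 and 0.07 on leaving out 1 array and was 0.04 with the filter, which left 70 genes. The median correlation of the members, 0.43, lay between 0.27 and 0.62 on leaving out 1 array, and values centred within each number for the replicate block gave 0.055; the block changed no call. Of 35 single genes, 27 changed sign in at least 1 setting. Averaging of probe sets per gene was not compared for single genes. In 454 of 455 comparisons the value moved by less than the replicate SD. Ezr was the exception, at -0.26 without wt replicate 2 and KO replicate 3. Leaving out 1 of 3 arrays, or adding the block, could not move a value by that SD, so those comparisons were fixed in advance. The single-gene differences rest on 3 arrays per genotype, and Cdx2 and Guca2a were near background.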

Other observations

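Genes beside one another on chromosome 5 were also high in KO replicate 3. Among the 17 genes at least 2 times higher there than in any other array were Cdk6, a cell cycle kinase, at 3166 against 1320 to 1489, Gatad1, at 1529 against 559 to 729, and Cyp51, a sterol demethylase, at 2771 against 625 to 1155. In the RefSeq gene order from Cdk6 to Cyp51, 9 of 11 measured genes were highest in KO replicate 3, among them Ankib1, Krit1 and Akap9 at 1.57, 1.65 and 1.58 times the next array. The exceptions, 1700109H08Rik and Tmbim7, read between 115 and 121 and between 206 and 229.6. The next genes, Fzd1 and Cdk14, were at 0.48 and 0.80 times the highest other array. These genes were picked out after their values were seen.

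Prap1, a proline-rich acidic protein of gut and uterine epithelium that was on none of the lists, read 1198, 945 and 458 in wt and 164, 866 and 5174 in KO replicates 1, 2 and 3.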
